A study of Mus musculus with 7 samples.

Results

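The baseline profile of trophocytes, the Pdgfra-low CD81+ cells of the mouse intestinal mesenchyme, was read from the wildtype controls of a study of stromal cells around Apc-deficient epithelium. All wildtype columns of the expression table were taken, which gave 3 of the 7 libraries. The other 4 libraries came from mice in which Apc had been inactivated in epithelial cells with floxed alleles and Villin-CreERT2, a tamoxifen-inducible Cre under an intestinal epithelial promoter, 2 of them 4 days and 2 of them 6 days earlier. The labels call the controls wildtype and do not say which alleles, treatment, age or sex they had, or whether the libraries came from separate animals. All 7 libraries are Pdgfra-low CD81+ cells, and the column names add that the gate was GFP-low. Column names place 1 control in a day 4 set and 2 in a day 6 set. They are called the day 4 set control and the first and second day 6 set control, and values for 3 libraries are given in that order.

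Trophocytes are fibroblasts that lie beneath the crypts and beside the stem cells. They are known for secreting the BMP antagonist Grem1, R-spondins, which amplify WNT signalling, and WNT ligands, while fibroblasts nearer the villus, including the Pdgfra-high telocytes, are known as the BMP source. BMP signals drive epithelial cells out of the stem cell state, so antagonists at the crypt base are thought to preserve it.

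The 6 genes named for these cells were all above 10 FPKM in every control. This does not test the label, since Cd81 and Pdgfra belong to the gate and 5093 genes had a median of at least 10 FPKM. Some markers of other cell types, given below, passed that level too. FPKM counts sequenced fragments relative to transcript length and library size, so levels can be compared between genes. Cd81, the tetraspanin used for the sort, was at 110, 149 and 142 FPKM. Pdgfra, the PDGF receptor by which the labels define the gate, was at 61.3, 54.3 and 59.9 FPKM. The stem cell antigen Cd34 was at 454, 506 and 509 FPKM, ranking 101st of 24908 genes. These surface genes differed little between the controls, with Cd81 lowest in the day 4 set control. Grem1 was at 178, 195 and 164 FPKM (179 ± 15.5, SD, n = 3). Rspo3 was at 24.5, 24.7 and 26.2 FPKM. Wnt2b, a WNT ligand, was at 22.4, 26.8 and 38.2 FPKM, the widest spread among the 6. Of 15 further genes of Pdgfra-low fibroblasts, 11 reached 1 FPKM in all 3 controls. Dpp4, which marks adventitial fibroblasts (0.873, 0.595 and 0.654 FPKM), and the surface antigen Thy1 (0.321, 0.0962 and 0.0369 FPKM) were below it in every control. The other 2, Dcn and Col1a1, were at 0 in 1 library, as described next.

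Some values listed at 0 affect the ranking. Gsn, Dcn, Col3a1, Col1a1 and Col1a2 were listed at 0 in the day 4 set control, although each exceeded 1000 FPKM in both day 6 set controls. Since fibroblasts in general use these genes, their values are given per library, as listed, with no fold change. The same happened elsewhere in the table: Gsn was listed at 0 in 1 day 4 knockout library and Col3a1 in 1 day 6 knockout library. Each of the 7 libraries held between 1 and 6 genes at 0 whose median in the other libraries was at least 100 FPKM. The lncRNA Hotairm1 was at 17.5 and 21.6 FPKM in the day 4 set control and the first day 6 set control and listed at 0 in the second day 6 set control.

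A wide transcriptome was present. In all 3 controls 10610 of 24908 genes (42.6%) reached 1 FPKM, 1237 more did so in 1 or 2 controls, and 7815 (31.4%) were listed at 0 in all 3. By median over the controls, 5093 genes reached 10 FPKM, 582 reached 100 FPKM and 45 reached 1000 FPKM. The 100 genes with the highest median held 31.8% of the summed FPKM in the day 4 set control, 37.1% in the first and 36.8% in the second day 6 set control. The share was lowest where the 5 genes are listed at 0. Each library has its own 100 most abundant genes, and 80 genes were among them in every control. The 100th gene stood at 513.8 FPKM and the 101st, Cd34, at 505.7 FPKM.

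The most abundant transcripts were matrix and secreted proteins, immediate early transcription factors, iron storage and antigen presentation genes. Gsn, an actin-severing protein that is also secreted, was listed at 0 in the day 4 set control and at 10449 and 11782 FPKM in the day 6 set controls. Dcn, a collagen-binding proteoglycan, was listed at 0, 11213 and 9671 FPKM, and Col3a1, a fibrillar collagen, at 0, 5307 and 6687 FPKM. Leaving those aside, the highest by median was Igfbp7, a secreted insulin-like growth factor binding protein, at 4088, 5378 and 6226 FPKM (5230 ± 1076, SD, n = 3), although Sparc, Fos and Adamdec1 were above it in the day 4 set control. Adamdec1, a secreted metalloprotease known from gut macrophages and fibroblasts, was at 4118, 4519 and 5151 FPKM. Both were lowest in the day 4 set control. The iron storage genes Ftl1 (2800, 2718 and 2378 FPKM) and Fth1 (2460, 2710 and 2615 FPKM) and the actin-sequestering Tmsb4x (1950, 2753 and 2550 FPKM) followed. Gpx3, a secreted glutathione peroxidase, was at 2296, 3291 and 2679 FPKM. B2m, the invariant chain of MHC class I, was at 3573, 3286 and 3648 FPKM, and the class I heavy chain H2-D1 at 2509, 1953 and 2732 FPKM. H2 genes have near-identical copies between which reads can be split, so their levels are uncertain. Fbln1, an elastic fibre protein, was at 1524, 2243 and 2559 FPKM, and Ubb, a ubiquitin gene, at 2096, 2084 and 1778 FPKM.

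**Figure D1:**
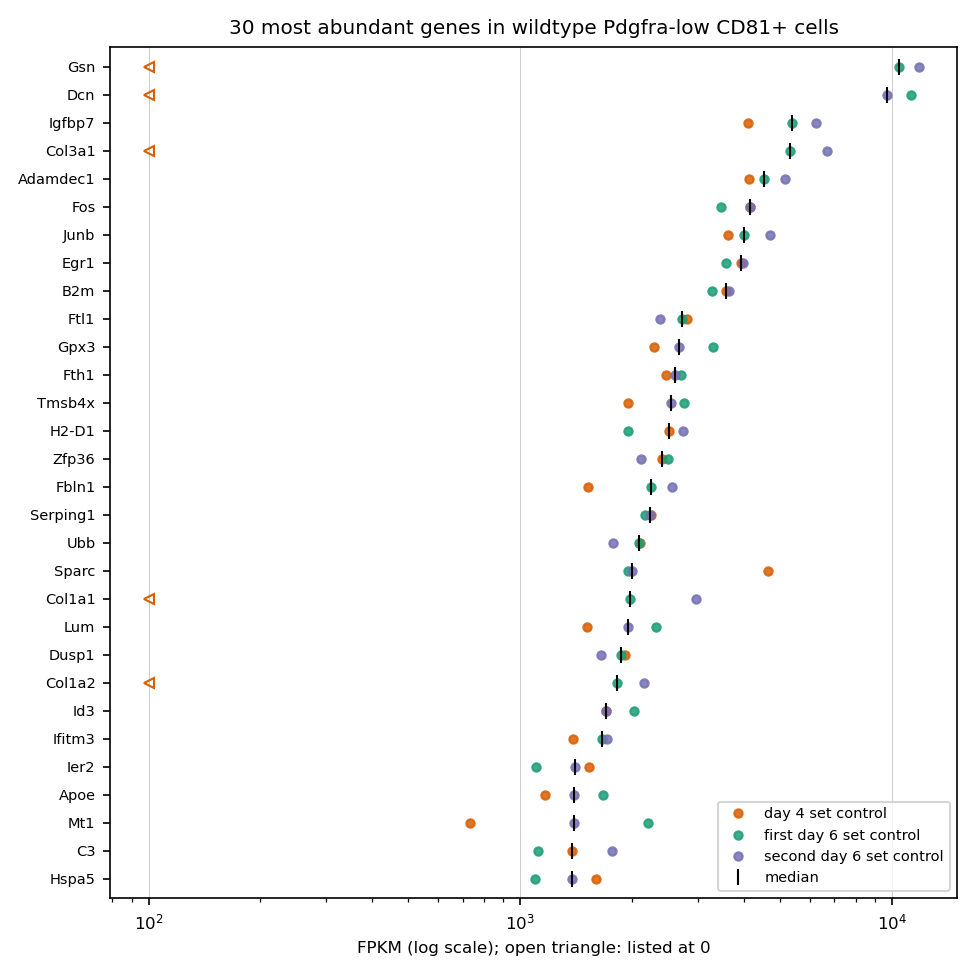
FPKM on a log axis of the 30 genes with the highest median over the 3 wildtype controls, 1 point per library, with open triangles for values listed at 0. Gsn, Dcn, Col3a1, Col1a1 and Col1a2 are at 0 in the day 4 set control only, and the points of most other genes lie close together.

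Immediate early genes, which are transcribed within minutes of a stimulus and also in response to tissue dissociation, were among the most abundant too. By median, Fos, Junb and Egr1 stood below Dcn and Col3a1 and above the other matrix genes. Fos was at 4152, 3469 and 4139 FPKM, Junb at 3631, 3996 and 4689 FPKM and Egr1 at 3915, 3578 and 3964 FPKM. Zfp36, which destabilises cytokine mRNAs, was at 2410, 2494 and 2113 FPKM. No control stood apart for these 4 genes, whereas Fosb was at 112, 378 and 301 FPKM, lowest in the day 4 set control. The 15 immediate early and heat shock genes together summed to 22282, 21985 and 23041 FPKM, and to between 21650 and 24719 FPKM in the 4 knockout libraries. How far handling of the cells contributed to these levels was not tested.

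The RefSeq promoter table (GRCm38.p6, which is not the build named in the processing notes) holds promoters of 12 immediate early and stress genes. Of these, 5 (Fos, Zfp36, Dusp1, Gadd45b and Btg2) hold TATAAA, a CArG box or TGACGTCA, and 7, among them Jun and Junb, hold none. The 250 bases before the annotated start of 5 genes are printed, 3 of them chosen because they hold a motif, 5′ to 3′ on the gene's strand, with motif matches in capitals. Fos (chr12:85473640-85473889, plus strand) carries TATAAA from position -33. Zfp36 (chr7:28379229-28379478, minus strand) carries a CArG box, the serum response factor motif, from position -58. Dusp1 (chr17:26508473-26508722, minus strand), a phosphatase that turns MAP kinases off and was at 1908, 1865 and 1650 FPKM, carries TGACGTCA, the cyclic AMP response element, from position -143. Grem1 (chr2:113758649-113758898, minus strand) and Cd34 (chr1:194938571-194938820, plus strand) stand for the trophocyte genes. They hold none of these motifs, with a GC content of 72.0% and 46.4%. Among other abundant genes Col3a1 holds TATAAA from -117, and B2m holds it from -152 on the opposite strand.
Fos: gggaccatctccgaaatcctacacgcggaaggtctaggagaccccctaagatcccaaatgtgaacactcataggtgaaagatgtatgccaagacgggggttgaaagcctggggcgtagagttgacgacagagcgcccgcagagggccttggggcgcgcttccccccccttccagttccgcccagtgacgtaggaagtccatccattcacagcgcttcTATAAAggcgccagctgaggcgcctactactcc
Zfp36: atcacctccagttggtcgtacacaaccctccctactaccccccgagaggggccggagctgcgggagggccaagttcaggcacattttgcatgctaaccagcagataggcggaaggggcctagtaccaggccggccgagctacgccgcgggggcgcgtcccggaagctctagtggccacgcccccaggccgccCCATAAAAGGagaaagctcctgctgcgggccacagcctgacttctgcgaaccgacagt
Dusp1: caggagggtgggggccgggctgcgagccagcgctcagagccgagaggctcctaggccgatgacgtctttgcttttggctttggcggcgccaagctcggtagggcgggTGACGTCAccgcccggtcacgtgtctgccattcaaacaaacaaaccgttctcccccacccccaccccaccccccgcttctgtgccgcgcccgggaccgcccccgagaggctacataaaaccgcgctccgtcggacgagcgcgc
Grem1: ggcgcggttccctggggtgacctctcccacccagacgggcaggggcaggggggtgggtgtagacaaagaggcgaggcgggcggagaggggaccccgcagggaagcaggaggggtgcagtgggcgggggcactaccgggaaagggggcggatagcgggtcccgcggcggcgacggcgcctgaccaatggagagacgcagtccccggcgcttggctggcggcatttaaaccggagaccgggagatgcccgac
Cd34: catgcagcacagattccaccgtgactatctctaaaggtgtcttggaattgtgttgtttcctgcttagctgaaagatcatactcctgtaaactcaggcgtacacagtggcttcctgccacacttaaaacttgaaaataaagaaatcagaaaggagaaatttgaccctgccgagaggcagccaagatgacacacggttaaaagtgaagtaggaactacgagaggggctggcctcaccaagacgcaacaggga

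Promoters of the same length were scanned for these motifs on both strands. The table held 96 promoters of 74 of the 100 most abundant genes, 10738 of genes at 1 FPKM or more in all controls, 5352 of genes listed at 0 in all controls and 32851 in all. TATAAA was found in 13.5% of the promoters of the most abundant genes, 6.23% of those of genes present, 22.5% of those of genes at 0 and 12.4% of all. On the sense strand between -45 and -16, where a TATA box lies, it was in 4.17%, 1.09%, 5.21% and 2.14% in the same order. TGACGTCA was in 3.13% of the promoters of the most abundant genes, 2.61% of those of genes present, 0.878% of those of genes at 0 and 1.55% of all. The CArG box was in 3.13%, 1.19%, 1.74% and 1.47% in that order. The sets differed most in CpG dinucleotides, with a median of 14 per promoter for the most abundant genes, 16 for genes present, 2 for genes at 0 and 6 for all. Median GC content was 59.8%, 60%, 46% and 52.4% in the same order. These shares describe the letters in the windows only.

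Secreted ligands were assembled in 12 families with 300 genes, of which 137 reached 1 FPKM in all controls, 79 were below 0.1 FPKM in all controls, and 5 were among the 100 most abundant genes. They held 2.45%, 2.80% and 1.96% of the summed FPKM. The families differed in how many members were present and how high they stood.

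WNT pathway ligands were few and at moderate levels. Of 19 WNT genes 6 were present in all controls and 11 were below 0.1 FPKM in all, including Wnt3, the ligand of Paneth cells, and Wnt3a. After Wnt2b came the mostly non-canonical ligands Wnt11 (8.44, 11.3 and 10.1 FPKM), Wnt9a (9.38, 8.54 and 7.08 FPKM) and Wnt5b (7.55, 7.56 and 7.01 FPKM). Wnt4 and Wnt5a lay between 2.30 and 5.39 FPKM, and Wnt2b stood above all other WNT genes in each control. Of the 4 R-spondins, Rspo3 was highest in each control, Rspo2 was at 14.6, 10.3 and 19.4 FPKM, Rspo1 at 10.5, 8.94 and 8.58 FPKM, and Rspo4 was listed at 0. Rspo2 was above Rspo1 in each control, although the lowest Rspo2 value was below the highest Rspo1 value.

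BMP ligands and their antagonists were both expressed. Bmp4 was at 156, 157 and 158 FPKM, above all other BMP and GDF genes, and was among the genes with the smallest spread between controls. Bmp2 followed at 69.7, 95.6 and 67.3 FPKM, Bmp6 at 49.6, 32.3 and 56.1 FPKM and the stress-induced Gdf15 at 28.8, 48.0 and 60.5 FPKM. Of 24 BMP and GDF genes 9 were present in all controls. Among the antagonists, which bind BMPs outside the cell, Nbl1 (392, 420 and 420 FPKM) stood above Grem1 in each control. Twsg1, which can both aid and block BMPs, was at 121, 128 and 132 FPKM, Fstl3 at 61.5, 60.5 and 60.2 FPKM and Chrd at 23.2, 28.8 and 27.5 FPKM. Grem1 and Bmp4 lay close, 164 to 195 FPKM against 156 to 158 FPKM, without overlap. Nog, an antagonist used in organoid culture, was at 0.222, 0.564 and 0.323 FPKM. In all, 9 of 15 antagonists were present.

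The EGF family was led by Ereg, a ligand of the EGF receptor, at 196, 222 and 159 FPKM (192 ± 31.5, SD, n = 3). Areg was at 9.35, 15.6 and 10.3 FPKM, Hbegf at 6.77, 13.9 and 5.49 FPKM and Nrg1 at 1.59, 5.43 and 6.06 FPKM. Ereg thus stood above 10 times each of these in every control, and 5 of 11 members were present. Of 22 FGF genes 6 were present, led by the epithelial growth factor Fgf7 at 18.9, 19.6 and 19.9 FPKM, while Fgf2, Fgf1, Fgf10 and Fgf13 lay between 2.82 and 11.7 FPKM. In the TGF-beta family Tgfb3 was highest at 92.2, 70.9 and 67.6 FPKM, above Tgfb2 (17.1, 24.0 and 27.0 FPKM) and Tgfb1 (12.4, 17.6 and 15.3 FPKM) in each control. Notch ligands were represented by Dll1 at 23.2, 16.9 and 19.0 FPKM.

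Chemokines held the highest ligand levels and some of the widest spread. Of 41 members 23 were present in all controls. Cxcl1, which attracts neutrophils, was at 1326, 1680 and 824 FPKM, and Cxcl12, which retains leukocytes and blood progenitors, at 838, 1061 and 1015 FPKM. The monocyte attractant Ccl2 was at 622, 1623 and 658 FPKM, Cxcl10, induced by interferon, at 506, 637 and 542 FPKM, and the eosinophil attractant Ccl11 at 398, 593 and 482 FPKM. All 5 were highest in the first day 6 set control. The cytokine Il6 was far higher in that library too, at 138, 920 and 227 FPKM, as were Ccl7 (99.7, 405 and 80.7 FPKM) and the TNF family ligand Tnfsf9 (39.1, 139 and 59.5 FPKM). The alarmin Il33 was at 75.4, 148 and 122 FPKM. Of 72 interleukins and related cytokines 21 were present and 26 were below 0.1 FPKM in all controls.

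Further growth factors included Gas6 (152, 149 and 162 FPKM) and Pros1 (135, 180 and 172 FPKM), the ligands of Axl and related receptors. The matricellular Ccn1, listed in the table under its older name CYR61, was at 1333, 611 and 821 FPKM, and Ccn2, listed as CTGF, at 121, 32.5 and 41.6 FPKM. Both are known targets of YAP and TAZ, and both were highest in the day 4 set control. Csf1, which sustains macrophages, was at 59.9, 140 and 95.5 FPKM, and the neurotrophin Ntf3 at 20.4, 34.3 and 41.2 FPKM. Angptl2 led the angiogenic ligands at 180, 150 and 180 FPKM, and Slit3 the guidance ligands at 91.0, 117 and 110 FPKM.

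**Figure D2:**
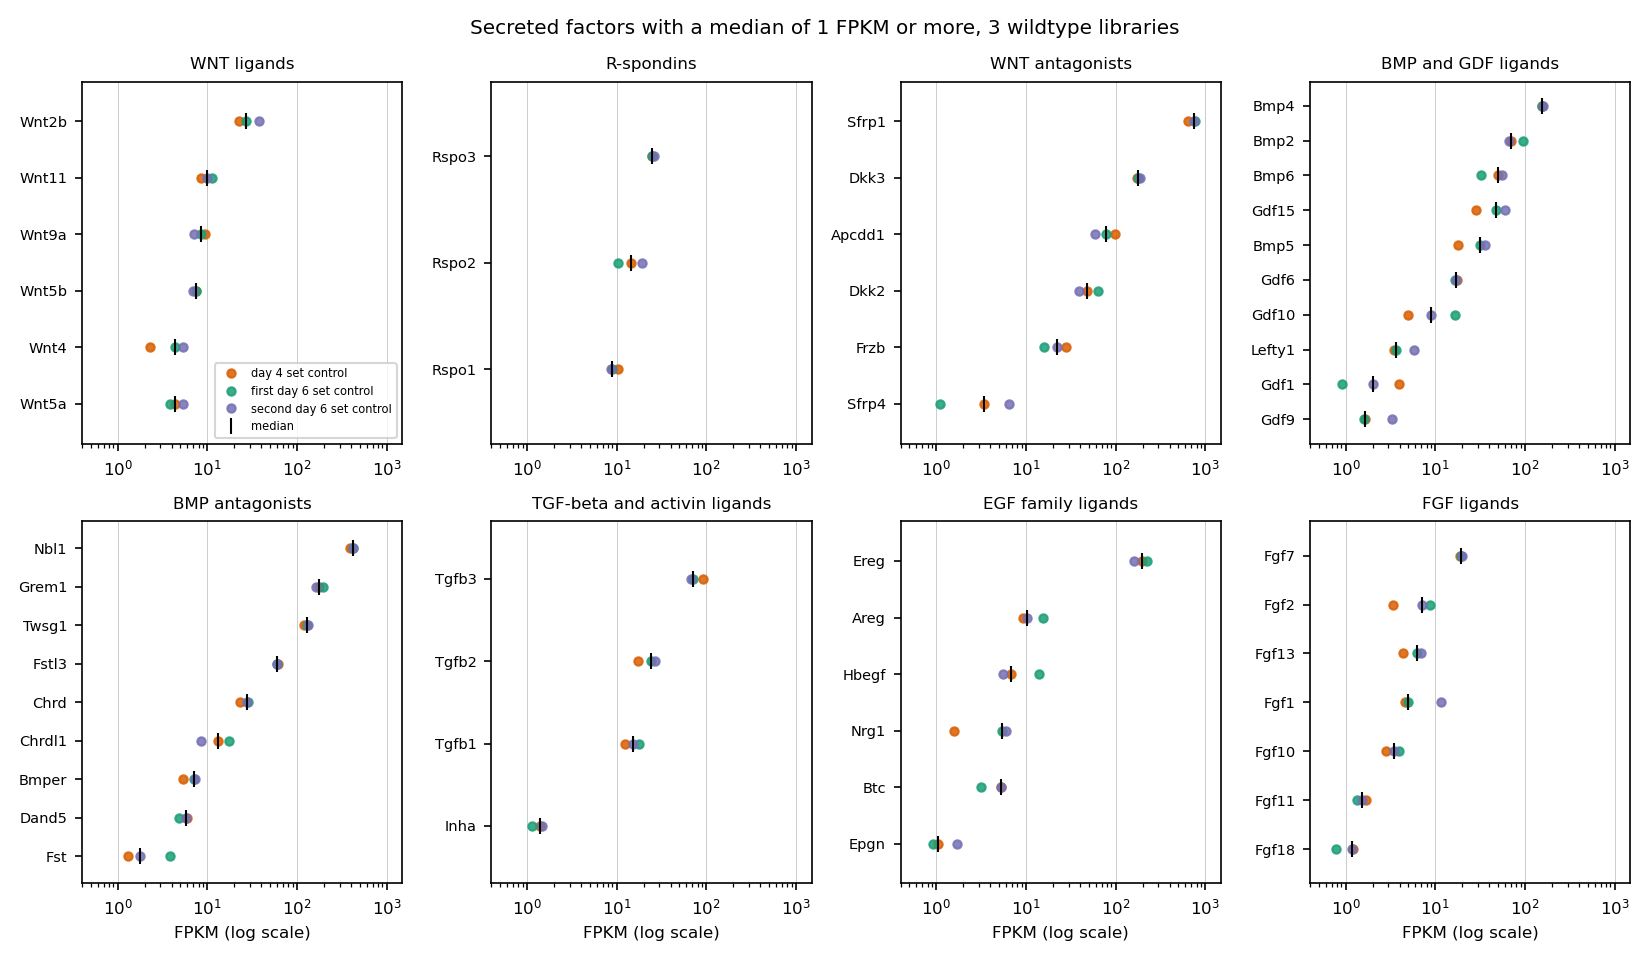
FPKM on a log axis of family members with a median of 1 FPKM or more in 8 families of secreted factors, 1 point per wildtype control. Ereg lies far above the other members of its family, and Bmp4 is the highest of its family in each library.

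Secreted modulators, which bind, cleave or inhibit other secreted proteins, numbered 198, of which 98 were present in all controls and 12 were among the 100 most abundant genes. The WNT antagonist Sfrp1 was at 639, 770 and 755 FPKM (721 ± 71.5, SD, n = 3), above every WNT ligand in each control. Dkk3, a divergent member of its family, was at 172, 177 and 189 FPKM, the WNT inhibitor Apcdd1 at 99.03, 78.3 and 59.2 FPKM and Dkk2 at 48.1, 64.5 and 39.4 FPKM. Sfrp2 stayed at or below 0.161 FPKM.

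Complement genes were abundant, with 21 of 34 complement and coagulation members present in all controls. Serping1, the inhibitor of C1, was at 2254, 2166 and 2232 FPKM (2217 ± 45.7, SD, n = 3), a narrow range. The central component C3 was at 1381, 1115 and 1763 FPKM, C4b at 924, 924 and 1275 FPKM and the protease C1s1 at 653, 594 and 608 FPKM. C3 and C4b were highest in the second day 6 set control. IGF binding proteins and related proteases were present for 8 of 11 members, and after Igfbp7 came the protease Htra3 (930, 846 and 1019 FPKM) and Igfbp4 (828, 520 and 771 FPKM). Ltbp4, which stores latent TGF-beta in the matrix, was at 751, 1128 and 1454 FPKM. Among proteases and inhibitors the gelatinase Mmp2 was at 712, 552 and 631 FPKM and its inhibitor Timp2 at 551, 715 and 597 FPKM. The collagen chaperone Serpinh1 was at 958, 1333 and 1301 FPKM.

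Matrix genes held 5.79%, 9.55% and 9.79% of the summed FPKM, lowest in the control where Dcn and the 3 collagens are listed at 0. Of 153 genes, 96 were present in all controls, 13 were among the 100 most abundant and 18 were below 0.1 FPKM in all. Collagen I and III were read from the day 6 set controls, in which Col1a1 was at 1976 and 2971 FPKM and Col1a2 at 1816 and 2158 FPKM. Collagen VI, a beaded filament, was steady, with Col6a1 at 864, 870 and 824 FPKM and Col6a2 at 766, 707 and 792 FPKM. Of 44 collagens 21 were present, a count that leaves out the 3 with a listed 0. Sparc, a matricellular collagen-binding protein, was at 4627, 1952 and 2001 FPKM, highest in the day 4 set control. Of 15 small leucine-rich proteoglycans 11 were present, a count that leaves out Dcn with its listed 0. After Dcn, Lum was at 1512, 2315 and 1951 FPKM and Bgn at 791, 641 and 734 FPKM. Elastic fibre genes were present for 19 of 21 members. The microfibril protein Mfap4 was at 1334, 1002 and 1135 FPKM, and elastin itself, Eln, ranged widely at 940, 243 and 598 FPKM. Basement membrane genes were lower, led by Lamb1 (194, 188 and 213 FPKM) and Nid1 (181, 173 and 152 FPKM), with 10 of 15 present. Has1, a hyaluronan synthase, was at 197, 517 and 254 FPKM.

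Of 328 receptors 169 were present in all controls, and 0 were among the 100 most abundant genes. They were lower than ligands only at the top of the range, since 91 of 328 receptors and 71 of 300 ligands had a median of 10 FPKM or more. The highest were the adhesion subunit Itgb1 (275, 254 and 254 FPKM) and P2ry14 (268, 266 and 236 FPKM), a receptor for UDP-glucose. Ackr4, a chemokine scavenger, was at 238, 279 and 223 FPKM and Lpar1, a lysophosphatidic acid receptor, at 218, 248 and 228 FPKM. Each overlapped its neighbour in this order, so the order of neighbours is not set. Tgfbr2 was at 224, 142 and 219 FPKM, the leptin receptor Lepr at 139, 272 and 199 FPKM and Ifngr1, the interferon gamma receptor, at 190, 224 and 199 FPKM.

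By pathway, the WNT receptors were led by Fzd1 at 159, 125 and 169 FPKM, and 13 of 23 were present. The stem cell receptors Lgr5 and Lgr6 and the ligase Rnf43 were below 0.1 FPKM in all controls. For BMPs the type I receptor Bmpr1a was at 31.9, 32.6 and 31.5 FPKM, and 10 of 15 BMP and TGF-beta receptors were present. Of 37 receptor tyrosine kinases 23 were present, led by Axl at 162, 161 and 211 FPKM. Fgfr1 was at 42.4, 57.2 and 73.8 FPKM, Fgfr2 at 51.9, 56.2 and 70.0 FPKM, Pdgfrb at 51.3, 48.7 and 50.4 FPKM and the receptor of Ereg, Egfr, at 32.1, 46.6 and 42.5 FPKM. Pdgfra was above Pdgfrb in each control. Hedgehog signals from the epithelium are read by Ptch1 and Smo, and Smo was at 28.7, 33.3 and 45.3 FPKM and Ptch1 at 6.21, 6.74 and 10.95 FPKM. The co-receptor Gas1 was at 71.5, 73.2 and 56.5 FPKM.

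Transcription factors held 7.43%, 6.82% and 6.70% of the summed FPKM, and 291 of 615 were present in all controls with 199 below 0.1 FPKM in all. The list also holds regulators that do not bind DNA, such as Id3, a helix-loop-helix inhibitor, at 1700, 2017 and 1702 FPKM. Of 47 AP-1, ATF, CEBP and MAF factors 41 were present. Besides Fos and Junb these included Jun (1084, 1023 and 1118 FPKM), Cebpb (587, 1467 and 1075 FPKM) and Cebpd (848, 712 and 858 FPKM). Cebpb was lowest in the day 4 set control. The orphan nuclear receptor Nr4a1, another immediate early gene, was at 835, 1115 and 935 FPKM, and Irf1, which follows interferon, at 407, 415 and 376 FPKM.

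Factors that mark the gut mesenchyme and its position stood lower. Tcf21, a mesenchymal helix-loop-helix factor, was at 408, 320 and 326 FPKM. Foxf1, which reads hedgehog signals in gut mesenchyme, was at 119, 132 and 143 FPKM and its paralog Foxf2 at 24.9, 30.9 and 35.8 FPKM. Nkx2-3, a homeobox factor of the midgut mesenchyme, was at 103, 99.8 and 162 FPKM, highest in the second day 6 set control. Of 39 HOX genes 15 were present in all controls and 16 were below 0.1 FPKM in all, led by Hoxb2 (16.2, 15.6 and 27.5 FPKM), Hoxa5 (12.4, 9.93 and 11.2 FPKM) and Hoxc8 (10.8, 10.96 and 13.3 FPKM). Sox9 was at 14.4, 18.5 and 15.98 FPKM and Tbx2 at 15.5, 28.8 and 36.8 FPKM. GATA factors were present for 0 of 6 members. Foxl1, the telocyte factor, was at 0.790, 0.690 and 1.23 FPKM, while some other telocyte genes, given below, were higher.

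**Figure D3:**
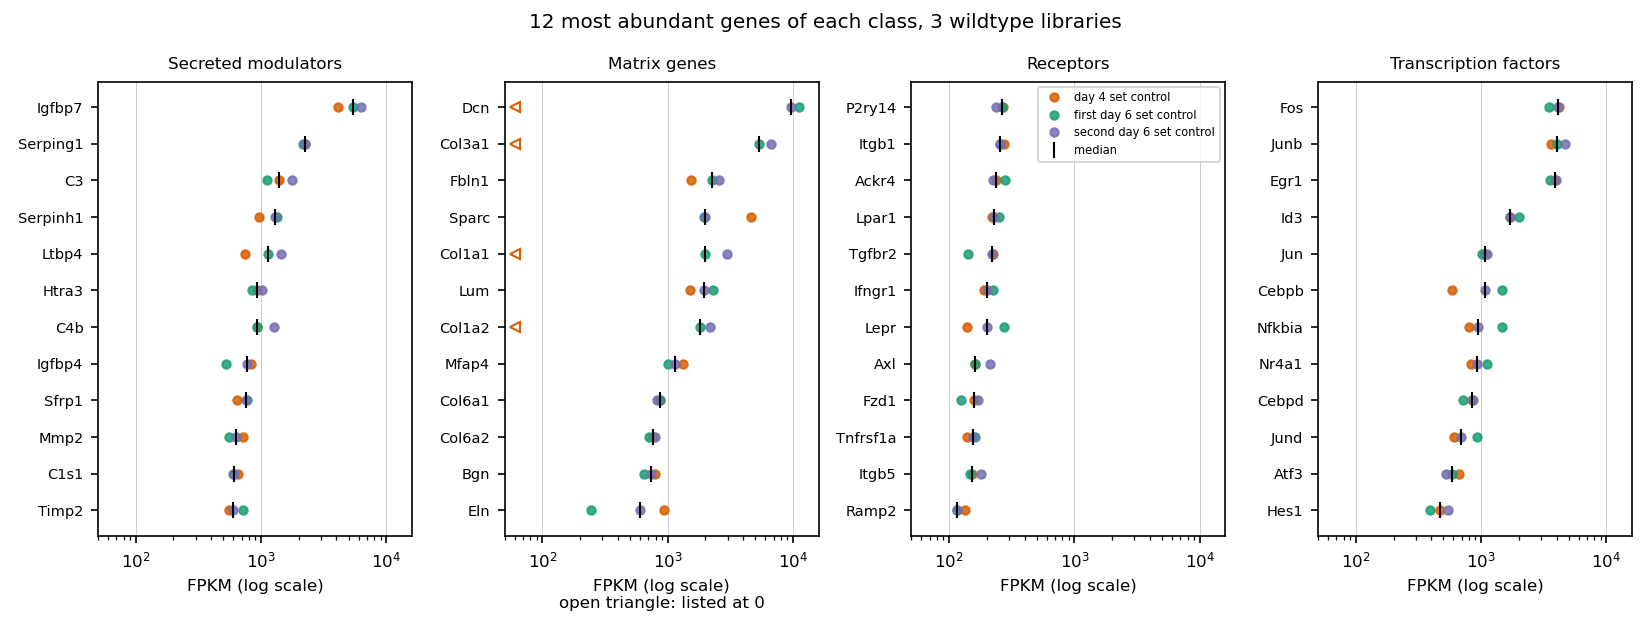
FPKM on a log axis of the 12 most abundant secreted modulators, matrix genes, receptors and transcription factors in the 3 wildtype controls, 1 point per library. Receptors stay below 300 FPKM, while the other classes exceed 1000 FPKM.

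Genes of other cell types were mostly low, with exceptions. Adipocyte genes were listed at 0 for 5 of 5 markers in all controls. For epithelium 1 of 14 markers reached 1 FPKM in all controls, and the list summed to 3.18, 5.97 and 3.56 FPKM. Epcam, its adhesion molecule, was at 0.811, 0.956 and 1.12 FPKM. Among the lists with no member present in all controls were mast cells and granulocytes, enteric glia, enteric neurons, mesothelium, and T and NK cells, summing to at most 7.28 FPKM per list. For blood endothelium 4 of 10 markers were present in all controls. Cdh5, which defines endothelium, was at 0.158, 0.132 and 0.108 FPKM, although Plvap, of fenestrated vessels, was at 53.5, 37.8 and 31.5 FPKM. Of 6 pericyte markers 3 were present, led by Rgs5 at 147, 139 and 135 FPKM, while Higd1b, of the same list, was listed at 0.

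Leukocyte transcripts were measurable. Of 11 pan-leukocyte and myeloid markers 8 were present, summing to 135, 164 and 106 FPKM, with Ptprc (CD45) at 6.24, 4.11 and 3.42 FPKM and the lysozyme Lyz2 at 44.3, 59.1 and 32.5 FPKM. All 7 B and plasma cell markers were present, summing to 573, 377 and 348 FPKM, of which Jchain, the joining chain of IgA, made up 484, 312 and 297 FPKM. In bulk RNA fewer cells of a type and less RNA per cell cannot be told apart. The Paneth cell defensin Defa24 was at 23.3, 0.726 and 14.6 FPKM, and its list summed to 47.4, 3.01 and 22.5 FPKM. Smooth muscle genes were present for 8 of 8 markers, with Acta2 at 22.3, 18.8 and 66.2 FPKM and the list at 68.6, 62.5 and 158 FPKM, highest in the second day 6 set control. The part of these cells in the ligand and receptor levels above was not tested. Telocyte genes reached 1 FPKM in all controls for 6 of 10 members, and the sum of the list was 119, 141 and 138 FPKM. Foxl1 was not among the 6. F3 was at 42.0, 65.8 and 48.2 FPKM, above Rspo3 and Wnt2b in each control. Bmp5 was at 17.9, 31.7 and 35.6 FPKM, Frzb at 28.2, 15.8 and 22.1 FPKM and Dll1 at 23.2, 16.9 and 19.0 FPKM. The proliferation marker Mki67 was at 0.260, 0.210 and 0.348 FPKM.

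**Figure D4:**
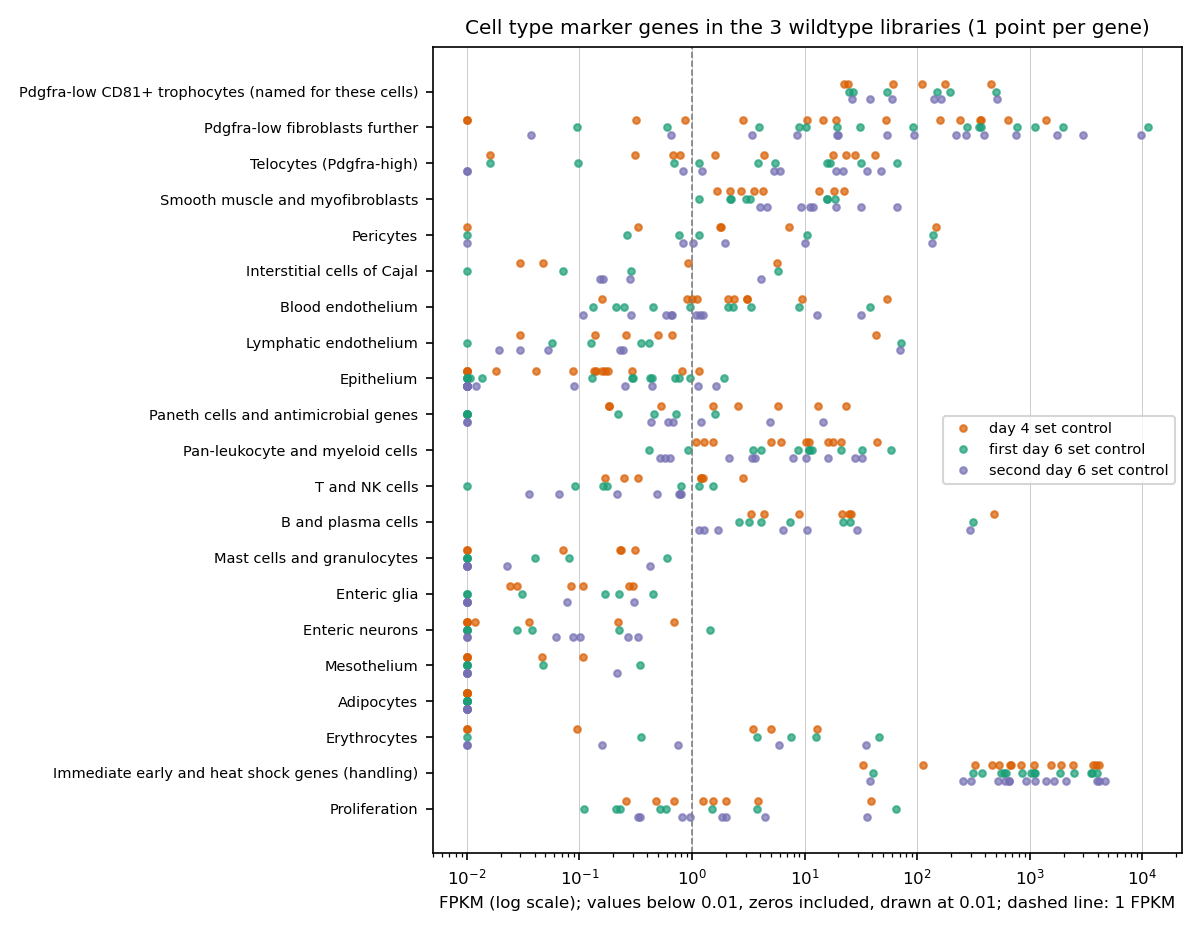
FPKM on a log axis of marker genes grouped by cell type in the 3 wildtype controls, values below 0.01 drawn at 0.01, with a dashed line at 1 FPKM. Trophocyte markers lie above 10 FPKM in each library, while most epithelial, glial, neuronal and adipocyte markers lie below the dashed line.

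The 3 controls were close for most genes. Over the 11214 genes with a median of 1 FPKM or more, the SD of log2(FPKM + 1) had a median of 0.208, and 90% of these genes lay below 0.467. By level the median coefficient of variation was 20.03% for 6121 genes between 1 and 10 FPKM, 13.4% for 4511 genes between 10 and 100 FPKM and 15.6% for 582 genes above. Across genes, which are not independent replicates, Pearson's r of log2 values was 0.971 between the day 6 set controls, and 0.952 and 0.949 between the day 4 set control and each of them. Without values at 0 the latter were 0.964 and 0.962. The share of the 11214 genes more than 2-fold apart in FPKM + 1 was 2.58% within the day 6 set and 3.93% and 4.28% across sets. Differences of low genes are understated on this scale.

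The day 4 set control stood apart most often. Counts were taken over the 5093 genes with a median of at least 10 FPKM, again on FPKM + 1. This control was more than 2-fold below both others for 101 genes and above both for 23 (2.43% in all). The first day 6 set control was below for 9 and above for 37 (0.903%), and the second below for 11 and above for 9 (0.393%). Over class members with a median of 1 FPKM or more, ligands had the widest spread (median SD 0.36 on the log2 scale). Matrix genes and modulators followed (0.29 each), then transcription factors (0.25) and receptors (0.23).

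The 10 widest genes included the 5 listed at 0 and Rps27rt, H2-Q2, Gm8909, Gm6644 and H2-Bl, some of which, such as the ribosomal Rps27rt and the MHC gene H2-Q2, have near-identical copies and uncertain levels. Below these came Khdrbs3, an RNA-binding protein, at 4.49, 58.9 and 79.7 FPKM and the small nucleolar RNA host Snhg6 at 2.82, 47.0 and 46.7 FPKM. In the knockout libraries Khdrbs3 was at 4.03 and 3.38 FPKM at day 4 and 57.6 and 57.3 FPKM at day 6, and Snhg6 at 4.66 and 4.36 FPKM and at 51.2 and 43.5 FPKM. Both thus followed the set in the column names, and set and day of knockout cannot be told apart in the knockout libraries. The opioid precursor Penk was at 15.5, 136 and 55.7 FPKM. At the other end, Sec24d, of the vesicle coat, was at 71.0, 70.9 and 70.7 FPKM, the ribosomal Rps3a1 at 262, 263 and 261 FPKM and the ATP synthase subunit Atp5b at 231, 231 and 230 FPKM.

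**Figure D5:**
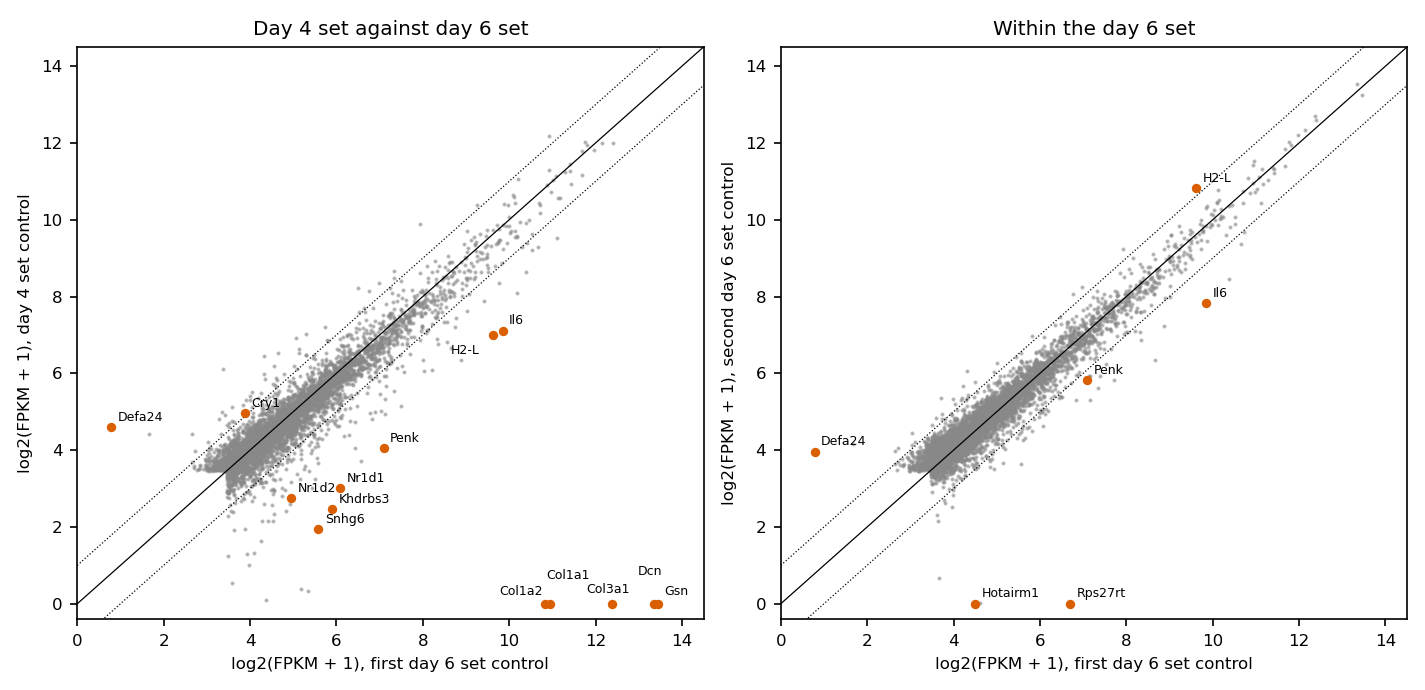
Each point is a gene with a median of 10 FPKM or more, plotted as log2(FPKM + 1) in the first day 6 set control against the day 4 set control (left) and the second day 6 set control (right), with dotted lines at 2-fold. More genes lie outside the dotted lines in the comparison across sets, where Gsn, Dcn, Col3a1, Col1a1 and Col1a2 stand at 0. In the comparison within the day 6 set Hotairm1 stands at 0.

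Comparison with the knockout libraries asks which genes of the profile differed where the neighbouring epithelium lacked Apc. Of the 3 controls 2 carry the day 6 set name, so differences between the sets enter the day 4 comparison and its counts by class. limma was fitted to 11735 genes on log2(FPKM + 1). It called 120 genes at day 4 (1.02% of those tested, 0.401% higher and 0.622% lower) and 5 at day 6 (0.0426%, all higher), with 2177 and 852 genes at an unadjusted p under 0.05. Both comparisons use the same 3 controls, whose values also ranked the genes. Leaving out the day 4 set control made the day 4 count 474, leaving out the first day 6 set control made it 6 and leaving out the second made it 2. Without day 4 knockout replicate 2 it was 9. It was 68 and 70 without one or the other day 6 knockout library, 5 against the day 4 set control alone, and 0 with no filter on low values.

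Of the 100 most abundant genes 1 was called at day 4 (1.00%, near the background) and 0 at day 6. It was Crip1, a small LIM domain protein, at 762, 1152 and 1046 FPKM in the controls and 290 and 208 FPKM in the day 4 knockouts, which lay below all controls. Its log2 change was -1.98 ± 0.30 (SE, limma adjusted p = 0.0413), and the call held in 6 of 14 alternatives. It was lost with no filter, with median-ratio scaling, with controls of the same set, with blocks by set and column number, and on leaving out either day 6 set control or either day 4 knockout library. These 100 genes had a median log2 change of -0.24, beside -0.06 for all genes tested. They were picked for high values in the same controls, which by itself favours a negative change, so these medians are not like for like.

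Class members were chosen with earlier results of these data known, so the shares by class are no test against the background. Among the classes, 6 of 164 ligands tested were higher at day 4 and 9 lower (9.15% in all). The higher ones were Ereg, Areg, Epgn, Cxcl13, Il11 and Spp1, and the lower ones included Wnt2b, Pdgfd, Il17d, Angptl1, Angptl2, Sema3b, Sema3c and Slit2. Ereg, at 196, 222 and 159 FPKM in controls, was at 658 and 1157 FPKM at day 4. Of 107 matrix genes 0 were higher and 8 lower (7.48%, median log2 change -0.54): Col5a3, Col6a5, Tgfbi, Fndc1, Ecm2, Egflam, Gpc4 and Igsf10. Tgfbi, an adhesive matrix protein, was at 154, 297 and 269 FPKM in controls and 55.0 and 55.0 FPKM at day 4. Modulators had 6 of 108 higher and 1 lower (6.48%), with Serpina3n, a protease inhibitor, at 279, 254 and 224 FPKM in controls and 1703 and 1319 FPKM at day 4. Receptors and transcription factors lay near or below the background, with 1 of 204 (0.490%, Itga11, lower) and 3 of 322 (0.932%; Heyl higher, Creb5 and Zfp423 lower). At day 6, 1 member of these classes was called, the modulator Serpina3m.

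Of the 6 trophocyte genes 2 were lower at day 4 and 0 were called at day 6. Cd34 fell from 454, 506 and 509 FPKM to 220 and 170 FPKM (log2 change -1.33 ± 0.21, SE, limma adjusted p = 0.0413). Wnt2b fell from 22.4, 26.8 and 38.2 FPKM to 10.5 and 11.3 FPKM (-1.31 ± 0.23, limma adjusted p = 0.0489). In both cases the day 4 knockouts lay below all controls. Against the day 4 set control alone the log2 changes were -1.23 for Cd34 and -0.98 for Wnt2b. The call of each held in 5 of 14 alternatives. Both calls were lost against the day 4 set control alone, with no filter, and with blocks by set and column number. They were also lost without the first day 6 set control, the second, day 4 knockout replicate 2 or either day 6 knockout library. That of Cd34 was also lost with median-ratio scaling, and that of Wnt2b without day 4 knockout replicate 1. The rest of the 6 missed the threshold at day 4. Grem1 was at 143 and 101 FPKM, Rspo3 at 17.3 and 29.1 FPKM, Pdgfra at 76.5 and 134 FPKM and Cd81 at 94.8 and 32.4 FPKM in the day 4 knockouts. Plasma cell transcripts differed between these 2 libraries, with the B and plasma cell list summing to 2724 and 150 FPKM, and their part in these differences was not tested.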

How the data were processed

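RNA was extracted from sorted cells with a column kit and libraries were made by poly-T bead capture with random hexamer priming, per the labels' protocols. The authors deposited FPKM values, 1 column per library. The submitters' processing notes name kallisto 0.46.1, DESeq2 1.40.1 and mm9 without saying which step used them. The table holds no counts, so depth is unknown and no detection floor can be given. Columns sum to between 351323 and 427369 FPKM. Of 25493 entries, 293 symbols were repeated and only their highest entry by mean was used, leaving 24908 symbols, 24772 of them matching mouse symbols of the annotation. Columns were assigned by name. The knockout column that names no day was taken as the second day 6 library, because it is the only title left.

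Genes were ranked by the median FPKM of the 3 controls, present meaning 1 FPKM or more. limma 3.58.1 (R 4.3.3) was fitted to log2 values, computed here from the deposited FPKM with a pseudocount of 1, with 1 mean per group, an intensity trend, two-sided tests and Benjamini-Hochberg adjustment at 0.05, for genes at 1 FPKM in at least 2 of the 7 libraries. It was tested on simulated data with independent normal values. That test does not cover listed zeros or differences between the sets. No label says that libraries are separate animals. Sex-linked genes, given below, differed between the controls, so these were not all from the same animal, but how many animals there were is not known. The p-values measure the spread between these samples only. Log2 changes understate those of low genes. The table does not name positions, and the reference is on another build, used for promoters only.

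The gene families and marker lists, and the members, were chosen with earlier results of these data known. Genes named are the 20 most abundant, the leading 4 of each family and 12 of each class, the 10 with the largest and the 10 with the smallest spread, single zeros, and members called in the knockouts. Others, including Penk, Khdrbs3, Snhg6, Ccl7 and Lepr, were picked after their values were seen. Alternatives tried were other thresholds, pseudocounts and filters, median-ratio scaling, summed repeats, same-set controls, listed zeros as missing, leaving out each library and, chosen after seeing the data, blocks by set and column number.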

Additional observations from a re-analysis of the deposited data

How the results depend on the processing

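The counts and shares of the profile moved little. With each control left out in turn, the number of genes present in the remaining controls ranged from 10766 to 10854, the genes listed at 0 from 8024 to 8905, the share of FPKM in the 100 most abundant genes from 34.7% to 38.2%, and the genes shared among the top 100 from 83 to 90. The median SD on the log2 scale, 0.208 in the report, was 0.20 with median-ratio scaling, 0.241 with a pseudocount of 0.1, 0.172 with no filter on low values, and 0.169 to 0.172 with 1 control left out. The levels of 212 named genes were recomputed in 636 comparisons, and 14 moved by more than 1 SD between controls, all with median-ratio scaling. These 14 changed by ratios of only 1.02 to 1.03. The mean of the controls cannot lie more than 1 SD from their median, so that comparison could not count as a move. Gsn went from 10449 FPKM by median to 7410 FPKM by mean and was not counted. The count therefore does not measure how stable the levels are.

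The calls against the knockouts depended on the processing. The day 4 count of 120 became 0 with no filter, 5 with controls of the same set in the column names, 153 with single zeros set missing and between 2 and 474 with 1 library left out. The 1 gene called among the 100 most abundant became 0 with no filter or median-ratio scaling, 3 with same-set controls, 2 with single zeros set missing, and 0 to 8 with 1 library left out. The day 6 count of 5 became 2 with a pseudocount of 0.1, median-ratio scaling or same-set controls, 3 with no filter, and 0 to 6 with 1 library left out. The cause of these changes was not tested. Of the 100 most abundant genes 0 were called at day 6 under any of these settings. The day 6 columns of controls and knockouts share the numbers 1 and 2, which nothing ties to a shared animal or day, and the day 4 control carries no number. The log2 differences between numbers 1 and 2 had r = 0.135 across 11735 genes between controls and knockouts, which with 2 pairs does not show that the numbers pair the libraries. With a replicate block by set and day 6 column number, chosen after seeing the data and leaving 2 residual degrees of freedom, 6 genes were called at day 4, 3 of them among the 100 most abundant, and 1 at day 6. Depth is unknown, so genes listed at 0 are not shown to be absent.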

Other observations

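Some of 14 clock genes, a list chosen after values were seen, separated the day 4 set control from the day 6 set controls. The repressor Nr1d1 was at 7.03, 67.1 and 72.2 FPKM, in the order used above, and its paralog Nr1d2 at 5.71, 30.04 and 25.5 FPKM. The output factor Dbp was at 0.695, 5.03 and 3.15 FPKM. Per2, at 7.01, 1.88 and 1.64 FPKM, and Cry1, at 30.4, 13.7 and 11.5 FPKM, were higher in the day 4 set control. Per1 was at 6.91, 9.57 and 12.6 FPKM, in the direction of Nr1d1, and Arntl, at 26.7, 18.5 and 27.7 FPKM, did not separate the sets. In the knockouts Nr1d1 was at 6.99 and 11.96 FPKM at day 4 and 22.9 and 19.5 FPKM at day 6. The hour at which each tissue was taken is not given in the sources used here.

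Class I genes of the MHC with close copies also differed. H2-Q4 was at 9.07, 85.9 and 113 FPKM and H2-L at 127, 787 and 1809 FPKM, while H2-K1 was at 1364, 938 and 1317 FPKM. The acute phase gene Saa3 was at 67.7, 9.38 and 16.98 FPKM in the controls and at 287 and 142 FPKM in the day 4 knockouts. Gapdh, a glycolytic enzyme often used as a reference, was at 193, 91.4 and 77.3 FPKM.

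Sex-linked genes differed between the controls. Xist, expressed from the inactive X, was at 3.48, 0 and 3.02 FPKM, and the Y-linked Ddx3y at 0, 39.9 and 0.182 FPKM. The controls therefore did not all come from the same animal. In the knockouts Xist was at 4.43 and 6.99 FPKM at day 4 and 0 and 2.17 FPKM at day 6, and Ddx3y at 0 in both day 4 libraries and 34.8 and 9.10 FPKM at day 6. Their part in the comparisons was not tested. The microRNA entry Mir5133 was listed at 0 in the first 2 controls and at 9720 FPKM in the second day 6 set control, and at 11751 and 3518 FPKM in the day 6 knockouts.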
